A study of Homo sapiens with 2 samples.

Results

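The 7 constitutive beta subunit genes of the 20S proteasome, PSMB1 to PSMB7, were examined in the NRF1 ChIP-seq data of HCT116 cells. The genes were chosen by name, and every peak whose centre lay within 20 kb of a transcription start site (TSS) of one of them was taken. This gave 7 of the 5683 deposited peaks, 1 for each of the 7 genes out of 20176 annotated protein-coding genes. The annotation table of the study lists the same peak for each of the 7 genes. HCT116 is a human colon cancer cell line, and the cells had been kept for 16 h in 1 µM MG132, a peptide aldehyde that inhibits the proteasome. NRF1, encoded by NFE2L1, was immunoprecipitated in 1 library. The input library of the series, from cells under the same treatment, was not analysed here. The series holds no library of untreated cells, so whether these peaks depend on MG132 cannot be seen in it.

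The 20S proteasome is a barrel of stacked rings in which beta subunits form the inner rings and alpha subunits the outer ones. Only some of the beta subunits cut proteins: PSMB5 carries the chymotrypsin-like activity, PSMB6 the caspase-like activity and PSMB7 the trypsin-like activity, while PSMB1, PSMB2, PSMB3 and PSMB4 build the ring without an active site. NRF1 is a membrane-bound transcription factor of the CNC-bZIP family that is degraded by the proteasome in untreated cells. When the proteasome is inhibited it is processed, enters the nucleus, pairs with small MAF proteins at antioxidant response elements (AREs) and raises proteasome gene transcription, which is known as the bounce-back response. It is unrelated to nuclear respiratory factor 1, which has the same abbreviation.

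AREs were searched on both strands of hg19 as TGAGNNNGC or TGACNNNGC, the consensus, and as TGAGTCAGC or TGACTCAGC, the longer form, whose sites are a subset of the consensus sites. Positions are given from the TSS of the canonical transcript on the strand of the gene, negative upstream, and refer to the middle base of a site. The consensus is common whether or not a gene has a peak. It was present in 30.9% of the hg19 promoter windows of all protein-coding genes, described below, and the longer form in 0.739%. Of the 7 peaks, 5 held the consensus and 0 held the longer form. The sites are shown because their form is what the following values turn on. Each is written 5′ to 3′ with 10 bases on each side, with the 9 bases of the consensus in capitals.

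PSMB1, chr6:170862361-170862369, minus strand: catctcgccgTGAGACAGCaagtgtcgga
PSMB2, chr1:36107102-36107110, plus strand: gtctcaccggTGAGACAGCacctcagagc
PSMB5, chr14:23503743-23503751, plus strand: cctgggccaaTGAGACAGCaaaactgctg
PSMB5, chr14:23504119-23504127, plus strand: gaactaattcTGAGAACGCctagcaaaga
PSMB5, chr14:23504554-23504562, plus strand: ttaacgcgccTGAGGTTGCcatcttgttt
PSMB6, chr17:4699440-4699448, plus strand: ccaaagagcgTGACAGAGCgctttacgac
PSMB3, chr17:36908890-36908898, plus strand: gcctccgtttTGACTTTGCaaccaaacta

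PSMB1, PSMB2 and PSMB5 each held the same 9 bases, TGAGACAGC, which differ from the longer form at 1 base (T5A, where position 1 is the T that opens the site). The bases around the 3 copies were not alike. Of the 20 flanking bases, PSMB1 and PSMB2 shared 5, PSMB2 and PSMB5 shared 5, and PSMB1 and PSMB5 shared 6. The other sites differed from the longer form at more bases, with C6T and A7T at PSMB3 and T5A and C6G at PSMB6. The remaining PSMB5 sites differed at 3 bases each. The recurrence of TGAGACAGC was noticed after the sequences were seen. These 9 bases were present in 14 of the 1122 peaks within 2 kb of a protein-coding TSS (1.25%), a count that includes the 3 members, and in 49 of 5673 peaks on chromosomes 1 to 22, X and Y with determined sequence (0.864%).

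All 7 genes had a peak with its centre within 2 kb of a TSS, against 1215 of the 20176 protein-coding genes (6.02%). No gene of the 7 had a further peak within 20 kb. The score is the authors' own value from MACS, −log10 of the peak's p-value multiplied by 10, and it ranks peaks within this list only. The members' scores ran from 223.26 to 614.43 with a median of 296.08, while the median was 91.86 over all peaks and 97.21 over the 1122 peaks near a protein-coding TSS, called promoter peaks. From the highest score to the lowest the genes were PSMB7, PSMB5, PSMB1, PSMB6, PSMB2, PSMB4 and PSMB3. All 7 therefore lay in the upper part of the list, and a best peak as high as that of PSMB3 or higher was found at 259 of the 20176 protein-coding genes (1.28%). With 1 ChIP library there is no replicate error, and the depth is unknown. Whether the scores of genes next to each other in this order differ cannot be tested, and the scores of PSMB1 and PSMB6 (299.14 and 296.08) and of PSMB4 and PSMB3 (223.84 and 223.26) were nearly equal.

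**Figure D1:**
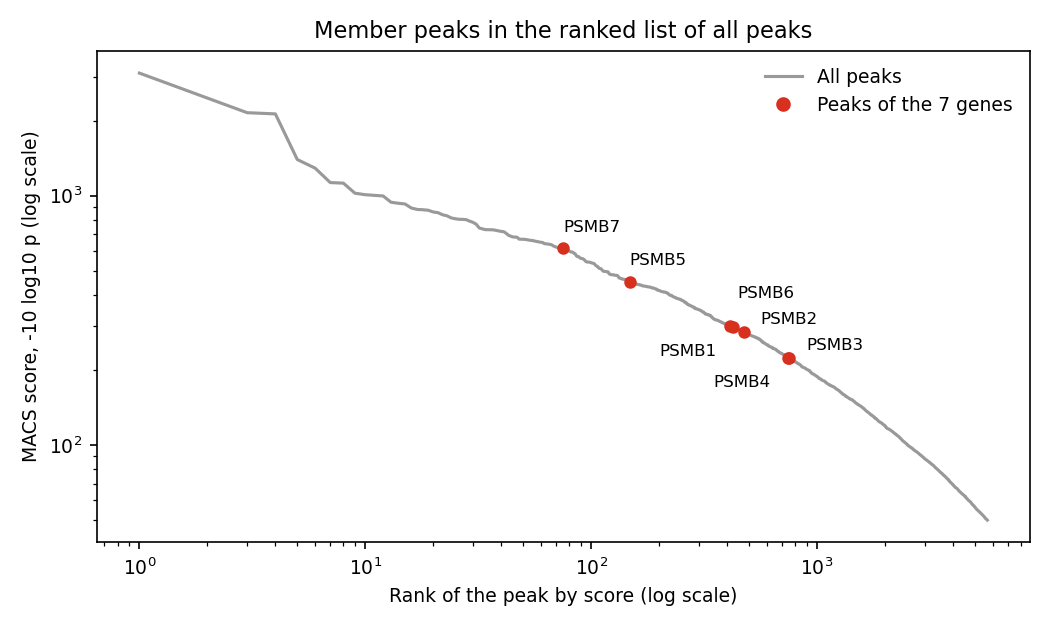
Score of every peak against its rank, both on log scales, with the peaks of the 7 genes as red points on the grey curve of all 5683 peaks. The members fall between rank 75 (PSMB7) and rank 755 (PSMB3).

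Of the catalytic subunits, PSMB7 had the highest score of the 7 genes. Its peak ran from 127177216 to 127177971 on chromosome 9, 756 bp wide, with a score of 614.43, rank 75 of 5683 and rank 37 of the promoter peaks. The gene lies on the minus strand from 127115744 to 127177723, with the canonical TSS at 127177721. The peak centre lay 128 bp downstream of that TSS, in intron 1, and 7 bp from the nearest annotated TSS of the gene. The peak held no match to the consensus. Among the 166 promoter peaks without the consensus, the median score was 73.54, and that of PSMB7 was the second highest, after 996.87 at CLTC, a gene named here after its value was seen.

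Although it lacks the consensus, the PSMB7 peak held TGACTCAGG at 127177504 to 127177512 on the minus strand, which is the strand of the gene. This site lay 213 bp downstream of the TSS and 85 bp from the peak centre, and it differs from the longer form only at the last base (C9G). It lies in intron 1 of the canonical transcript and within exons of shorter transcripts that start 135 and 151 bp downstream. It contains TGACTCA, which with TGAGTCA makes up the heptamer that AP-1 factors are known to bind, and this heptamer was present in no other member and in 56.3% of the promoter peaks. Of the promoter peaks without the consensus, 60 (36.1%) held this heptamer. The first 160 bases of intron 1, from 79 to 238 bp downstream of the TSS, are shown on the strand of the gene with the heptamer in capitals.

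PSMB7 intron 1, chr9:127177483-127177642, minus strand: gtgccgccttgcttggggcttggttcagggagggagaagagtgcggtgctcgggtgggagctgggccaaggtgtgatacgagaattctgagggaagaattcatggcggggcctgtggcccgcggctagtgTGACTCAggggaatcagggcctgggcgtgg

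PSMB5, whose product is the main target of proteasome inhibitors used as drugs, had the second highest score and the widest peak. The peak ran from 23503466 to 23504726 on chromosome 14, 1261 bp, with a score of 451.89 and rank 148. It was centred 13 bp downstream of the canonical TSS at 23504109, in the 5′ UTR of exon 1. For this gene 6 distinct TSSs are annotated, at −330 to 173 bp relative to the canonical one, and all lay inside the peak. PSMB5 was the only member with more than 1 consensus site. The 3 sites lay at −449, −14 and 362 bp, all on the strand opposite to the gene, and the site nearest to the peak centre was TGAGAACGC at −14 bp, 27 bp from the centre. TGAGACAGC, the form shared with PSMB1 and PSMB2, was the one in intron 1 at 362 bp, far from the centre. Relative to the transcript that starts at −330 bp, the site at −14 bp lies downstream of the TSS. The annotated miRNA gene AL132780.1, on the minus strand like PSMB5, has its TSS 1249 bp from the peak centre.

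At PSMB6 the peak ran from 4699087 to 4699749 on chromosome 17, 663 bp wide, with a score of 296.08 and rank 427. The gene lies on the plus strand, with the canonical TSS at 4699459 and the peak centre 41 bp upstream of it. Its 1 site, TGACAGAGC, lay at −15 bp on the strand of the gene and 26 bp from the centre, the shortest distance of any member. Another transcript starts at −20 bp, so that the site lies in the 5′ UTR of that transcript. The 150 bases upstream of the canonical TSS are shown with this site in capitals, since it lies next to the start of transcription.

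PSMB6 upstream region, chr17:4699309-4699458, plus strand: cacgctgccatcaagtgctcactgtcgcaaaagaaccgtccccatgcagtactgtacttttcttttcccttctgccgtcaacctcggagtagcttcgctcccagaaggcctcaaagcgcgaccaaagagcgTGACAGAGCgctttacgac

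Among the subunits without an active site, PSMB1 had the highest score. Its peak ran from 170861938 to 170862650 on chromosome 6, 713 bp wide, with a score of 299.14 and rank 413, and its centre lay 101 bp downstream of the TSS at 170862395, in the coding part of exon 1. The TGAGACAGC site lay at 30 bp, in the 5′ UTR and on the strand of the gene. PSMB1 and its neighbour TBP are transcribed away from each other. The nearest TSS of TBP, which encodes the TATA-binding protein, was 1096 bp from the peak centre, so that the same peak also counts as a promoter peak of TBP. The peak overlaps the start of PSMB1 and not that of TBP.

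PSMB2 had a similar arrangement. Its peak on chromosome 1 from 36106707 to 36107415, 709 bp wide, had a score of 283.76 and rank 474, and was centred 66 bp downstream of the TSS at 36107127, in the 5′ UTR. TGAGACAGC lay at 21 bp, also in the 5′ UTR, but on the strand opposite to the gene. Thus the same 9 bases lay 30 and 21 bp downstream of the TSS of PSMB1 and PSMB2 in opposite orientation relative to the gene.

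PSMB3 was the member whose peak centre lay farthest upstream. The peak ran from 36908537 to 36909192 on chromosome 17, 656 bp wide, with the lowest score of the 7, 223.26 (rank 755). Its centre lay 130 bp upstream of the TSS at 36908994, and its site, TGACTTTGC, at −100 bp. The 150 bases upstream of the TSS, with the site in capitals, contain no annotated UTR of the gene. PCGF2, a Polycomb group gene, has its nearest TSS 2794 bp from the peak centre, and the snRNA gene RNU6-866P and the lncRNA ENSG00000277182 have theirs at 2789 and 3251 bp.

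PSMB3 upstream region, chr17:36908844-36908993, plus strand: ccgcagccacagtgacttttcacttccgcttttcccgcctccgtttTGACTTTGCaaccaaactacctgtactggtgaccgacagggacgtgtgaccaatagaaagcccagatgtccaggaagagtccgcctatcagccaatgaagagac

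PSMB4 was the other member without an ARE. Its peak ran from 151371837 to 151372558 on chromosome 1, 722 bp wide, with a score of 223.84 and rank 748, and was centred 148 bp downstream of the TSS at 151372049, in the coding part of exon 1. Its score was the tenth highest of the 166 promoter peaks without the consensus. The 9 bases in the peak closest to the longer form differed from it at 2 bases. The peaks of PSMB1, PSMB2 and PSMB7 were likewise centred downstream of the TSS, by 66 to 128 bp. The 121 bases around the PSMB4 peak centre, from the coding part of exon 1 into intron 1, are shown in lower case throughout because no ARE is present.

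PSMB4 peak centre, chr1:151372137-151372257, plus strand: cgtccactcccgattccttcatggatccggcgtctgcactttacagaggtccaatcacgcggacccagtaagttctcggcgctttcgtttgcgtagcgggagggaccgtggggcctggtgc

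**Figure D2:**
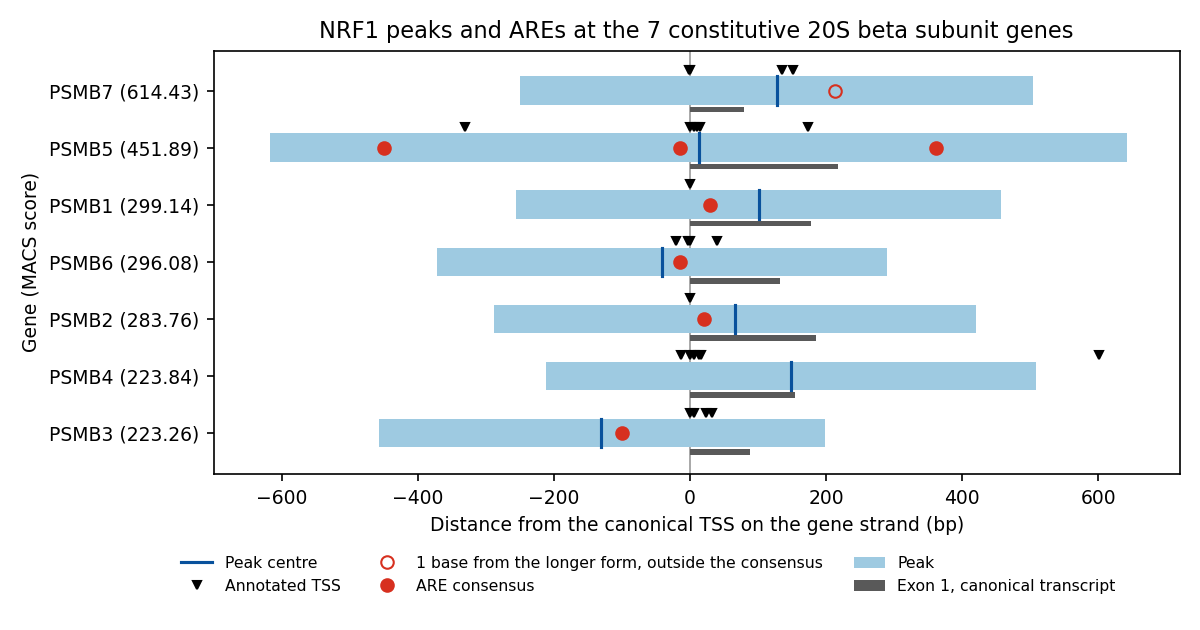
Peaks (blue bars), peak centres, annotated TSSs, exon 1 of the canonical transcript and AREs at the 7 genes, ordered by score, against the distance from the canonical TSS in bp on the strand of the gene. Every peak spans the TSS, the centres run from −130 to 148 bp, and no ARE is present at PSMB7 or PSMB4, where the open circle at PSMB7 marks TGACTCAGG.

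The 7 peaks were close to the TSS, and each of them spanned it. The absolute distance from the centre to the canonical TSS was 13 to 148 bp with a median of 101 bp, and 5 of the 7 centres lay downstream. Over the 1215 protein-coding genes with a peak within 2 kb of any TSS, the median distance from the canonical TSS was 1205 bp, and 184 of them (15.1%) had their best peak centred within 148 bp. These genes were chosen by any TSS (6.02% of protein-coding genes), and only 3.68% had a peak within 2 kb of the canonical TSS. Genes with a peak only at another TSS thus raise the 1205 bp and lower the 15.1%. Within 1 kb of any TSS, 4.75% of protein-coding genes had a peak. The width of the members' peaks ran from 656 to 1261 bp, and its median was 713 bp, against 518 bp over the promoter peaks and 727 bp over the 229 promoter peaks whose score was at least that of PSMB3. Their width was thus near that of other promoter peaks of similar score. The GC content of the members' peaks was 53.4 to 57.8%, and the median of the promoter peaks was 54.6%.

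The absence of the longer ARE form was set beside the other peaks. The longer form was present in 0 of the 7 peaks, in 43.2% of the promoter peaks and in 53.3% of the 229 promoter peaks that scored at least as high as PSMB3. The consensus was present in 5 of the 7, in 85.2% of the promoter peaks and in 95.6% of those 229. With 7 genes these counts are a description, and no test was made over genes. Promoter peaks with the longer form had a median score of 116.18, those with the consensus only 96.67 and those with neither 73.54, so that all 7 members scored above the median of each class.

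**Figure D3:**
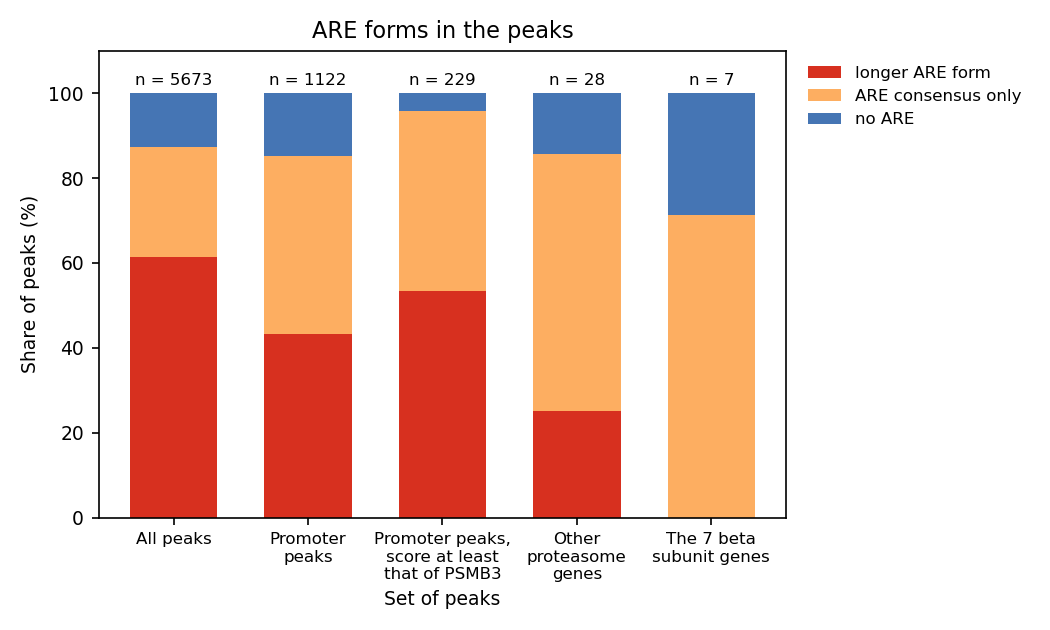
Share of peaks (%) that hold the longer ARE form, only the consensus or no ARE, in all peaks on chromosomes 1 to 22, X and Y, in promoter peaks, in promoter peaks that score at least as high as PSMB3, at the other proteasome genes and at the 7 beta subunit genes. The longer form makes up 61.3% of all peaks, 25% of the 28 peaks at other proteasome genes and 0 of the 7 members.

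The variable bases of the consensus were compared in the site nearest to each peak centre, for the 5 members that have one. Position 5 was A in 4 of the 5 members and T in 1, PSMB3. In promoter peaks position 5 was T in 65% and A in 15.5% of 956 nearest sites, and in the 471 promoter peaks with the consensus but without the longer form it was T in 35.5% and A in 28.9%. An A stood directly before the nearest site in 0 of 5 members, in 45.7% of the promoter peaks and in 42.7% of those 471. Among the sites that were not the nearest, TGAGACAGC in the PSMB5 peak did have an A directly before it. The members' nearest sites lay 26 to 71 bp from the peak centre, with a median of 30 bp, close to the 33 bp of the promoter peaks. If single differences from the longer form were allowed, 4 of the 7 members held a match (PSMB1, PSMB2, PSMB5 and PSMB7), while the best match of the other 3 differed at 2 bases. Over the promoter peaks the best match was exact in 43.2%, differed at 1 base in 35.4% and at 2 bases in 20.1%.

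AREs near these genes that are not in a peak were also counted. Within 2 kb of the 7 canonical TSSs there were 17 consensus sites, of which 7 lay inside a peak, and no site of the longer form. Within 20 kb there were 222 consensus sites, and the same number, 7, lay inside a peak. The longer form occurred 4 times within 20 kb and 0 of these sites lay in a peak. They were found once each at PSMB2 (−9111 bp), PSMB4 (12881 bp), PSMB5 (3799 bp) and PSMB7 (3730 bp). Around the canonical TSSs of all protein-coding genes, 1.43% of 74858 consensus sites and 15.1% of 1620 longer sites within 2 kb lay in a peak, where sites near several TSSs were counted for each. Most of these genes have no peak there, whereas each member has one, so 7 of 17 is not set beside a like group. No share over all genes was computed for 20 kb, and 0 of 4 longer sites is too few to set the members apart.

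**Figure D4:**
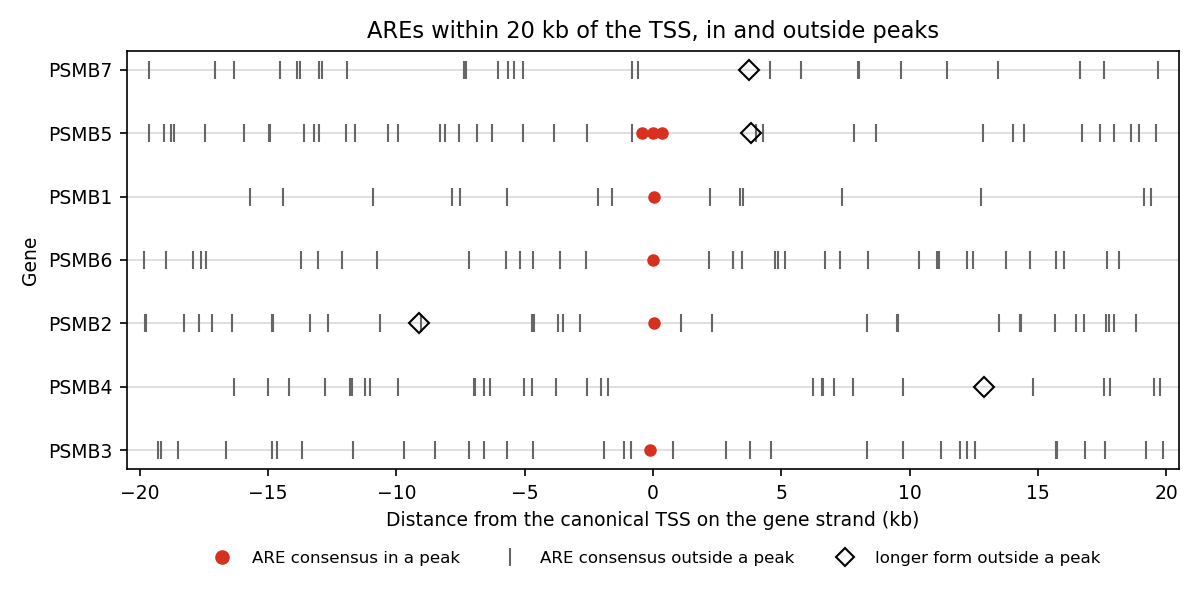
AREs within 20 kb of the canonical TSS of the 7 genes, against the distance in kb on the strand of the gene, inside a peak (red points) or outside (grey ticks), with sites of the longer form outside a peak as diamonds. The 7 sites in peaks lie between −449 and 362 bp, and the 4 diamonds lie 3730 bp or farther from it.

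The promoters were also searched for elements of general promoter architecture. RefSeq promoters of 300 bases (GRCh38.p14, from 250 before to 50 after the start) were matched for 4 of the 7 genes, PSMB2, PSMB3, PSMB4 and PSMB5. For PSMB1, PSMB6 and PSMB7, and as a setting added after the data were seen, windows of the same length were read from hg19 for all 20176 protein-coding genes. In the hg19 windows, CCAAT, the box that NF-Y binds, was present at PSMB1, PSMB2 and PSMB3 and in 35.9% of all windows. GGGCGG, the GC box, was found at PSMB1, PSMB3 and PSMB7 (60.9% of all windows) and CCGGAAG, a core of ETS sites, at PSMB1 and PSMB7 (14%). TATAAA (9.78%) and GCGCATGC, a core of the nuclear respiratory factor 1 motif (4.26%), were found at 0 of the 7. Thus PSMB4, PSMB5 and PSMB6 held none of these 5 motifs in the hg19 windows. The ARE consensus was present in the hg19 windows of PSMB1, PSMB2, PSMB3, PSMB5 and PSMB6 and in 30.9% of all windows. The longer ARE form was found at 0 of the 7 and in 0.739% of all windows. A consensus match alone is therefore common in promoters, and the longer form is rare. The windows are shorter than the members' peaks, so these shares are not directly comparable with those of peaks. In the RefSeq promoters CCAAT was present at PSMB2, PSMB3 and PSMB5 and in 34.6% of all 35116 promoters, which for PSMB5 differs from the hg19 window. GGGCGG was present at PSMB3 and in 45% of the RefSeq promoters. A match is a description of letters, and no match says only that they are not in this window. The windows held 49.3 to 58.3% GC, below the median of 63.3% over all protein-coding genes for each of the 7.

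The other genes of the proteasome were taken from lists of the alpha subunits, the ATPase and non-ATPase subunits of the 19S particle, and assembly factors. The alpha subunits PSMA1 to PSMA7, which form the gate of the barrel, also had a peak within 2 kb at 7 of 7 genes, with a median score of 305.06 that is close to that of the beta subunits, and a wider range from 90.61 at PSMA2 to 681.29 at PSMA1. Their peak centres lay 97 to 359 bp downstream of the canonical TSS at all 7 genes, whereas the beta centres ran from −130 to 148 bp. From the nearest annotated TSS of the gene, the alpha centres lay 33 to 298 bp away and the beta centres 2 to 131 bp. The longer ARE form was present at 2 of the 7 alpha genes and the consensus at all 7. The 6 ATPase genes PSMC1 to PSMC6, whose products unfold substrates, all had a peak, with scores from 144.19 at PSMC4 to 412.41 at PSMC3 and a median of 266.56, and like the beta genes they held 0 longer forms, with a consensus at 5 of 6. The ATPase peak centres ran from −24 to 180 bp from the canonical TSS, a range near that of the beta genes. The 13 non-ATPase genes had the highest median, 433.37, with scores from 119.94 at PSMD13 to 1128.13 at PSMD14, and 5 of them held the longer form. The ranges of all these lists overlap that of the beta subunits, no test was made between lists, and no difference of the beta subunits from the other lists was established.

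**Figure D5:**
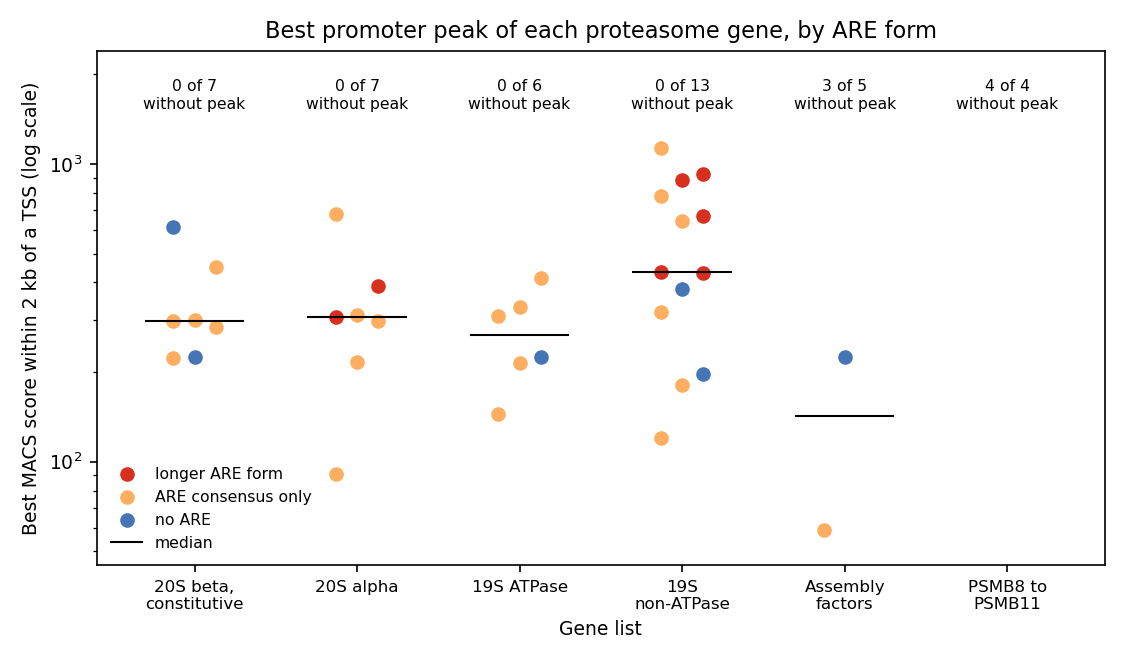
Best score within 2 kb of a TSS (log scale) for each gene of the proteasome lists, coloured by ARE form, with the median as a line and the number of genes without a peak above. The 7 constitutive beta genes sit between 223.26 and 614.43, and PSMB8 to PSMB11 have no point.

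The beta subunits that can take the place of the constitutive ones had no such peak. PSMB8, PSMB9 and PSMB10 replace PSMB5, PSMB6 and PSMB7 in the immunoproteasome, which interferon induces, and PSMB11 is the catalytic subunit of the thymoproteasome. None of the 4 had a peak centre within 2 kb of a TSS (0 of 4, against 6.02% of protein-coding genes). The peak nearest to PSMB8 and PSMB9, which lie side by side on chromosome 6, was 24016 and 24217 bp away and had a score of 136.68, and that nearest to PSMB10 was 50235 bp away with a score of 62.71. PSMB11 neighbours PSMB5, and its nearest peak, 7325 bp away, was the one at the start of PSMB5. Within 2 kb of the canonical TSS there were 16 consensus sites at these 4 genes and 17 at the 7 constitutive ones. Of the 16, 0 lay in a peak, against 1.43% of such sites over all protein-coding genes. Having no peak thus does not set these 4 genes apart from most protein-coding genes. The expression of these genes and the accessibility of their chromatin in HCT116 cells were not analysed here, so their part in the presence or absence of a peak was not tested.

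Of the assembly factors, POMP, the chaperone that helps to build the beta ring, had a peak with a score of 224.90, which is near those of PSMB3 and PSMB4, and without an ARE. PSMG3 had a peak with a score of 59.16, and PSMG1, PSMG2 and PSMG4 had none within 2 kb. PSMB3 and PSMB7 have 3 annotated processed pseudogenes named after them, PSMB3P1, PSMB3P2 and PSMB7P1, and 0 of these had a peak within 20 kb.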

How the data were processed

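NRF1 ChIP-seq of HCT116 cells was analysed from 1 deposited list of peaks. The authors sequenced single-end reads, mapped them to hg19 with Bowtie2 2.2.6 and called peaks with MACS 1.4.2, and the deposited score of each peak is 10 times the negative log10 of its p-value. The MACS settings, the handling of duplicate reads and the control are not given in the sources used here, and depth is unknown. Genes and TSSs were taken from GENCODE 44 mapped to the same build. For each gene the peak with the highest score within 2 kb of any TSS was used. The genes, the lists and the choice of comparisons were made with earlier results of these data known. The genes named are the 7 members, genes with a TSS within 5 kb of their peaks, PSMB8 to PSMB11, and the lowest, highest and absent genes of each list. The genes of the promoter peaks without an ARE (CLTC, CWC25, CLPB, RHBDD3, ZFAND5, PSMD4 and PSMC1) lie outside this rule and were named after their values were seen. No test was made, because there is 1 library and genes are not replicates. Array values of these genes were not used here. The site search was tested on simulated data and found 200 of 200 planted sites. Python 3.11.15, numpy 2.4.6, scipy 1.17.1, pysam 0.24.0 and matplotlib 3.10.9 were used. Alternatives covered score thresholds, windows, TSSs, peak edges, merged intervals, ARE forms and searched widths.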

Additional observations from a re-analysis of the deposited data

How the results depend on the processing

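The count of 7 members with a promoter peak was the same with scores of at least 100 or 200, windows of 500 bp, 1 kb or 20 kb, the canonical TSS only and distances from the peak edge. None of these settings could change it. Each member had 1 peak within 20 kb, which scored at least 223.26 and was centred within 148 bp of the canonical TSS. The median score was the same with the canonical TSS, windows of 1 kb or 20 kb and intervals within 500 bp merged, and with 1 peak per gene it could not differ. The median rank among promoter peaks was 147, and 166 by score per width. The number of members with an ARE was 5, also in the central 200 or 400 bp and within 1 kb, but was 0 with the longer form and 4 with at most 1 base differing from it, the last added after the data were seen. The median distance from the TSS was 101 bp, 66 bp from the nearest TSS of any transcript and 21 bp for the nearest ARE. The share of protein-coding genes with a peak was 6.02%, and 3% with a score of at least 100, 4.75% within 1 kb, 18.7% within 20 kb and 3.68% with the canonical TSS. The share with a score as high as the lowest member was 1.28%, 1.07% within 1 kb and 0.823% with the canonical TSS. The number of sites of the longer form in a peak was 0 within 2 kb and 20 kb, and that of the consensus 7. No replicate could be left out, and no paired analysis was possible because there is 1 library.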

Other observations

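The promoter peaks that score at least as high as PSMB3 but hold no ARE were listed after the data were seen. There were 10 of them among 229, and 5 had a gene of the proteasome lists as the nearest protein-coding gene, namely PSMB7, PSMD4, POMP, PSMC1 and PSMB4. The other 5 lay at CLTC, CWC25, CLPB, RHBDD3 and ZFAND5. Of the 122 peaks of this height with the longer form, 7 had a gene of these lists as the nearest one, and of the 97 with the consensus only, 14 did. The closest 9 bases differed from the longer form at 1 base at PSMB7 and PSMD4 and at 2 bases at POMP, PSMC1 and PSMB4. The height is that of the lowest member, so PSMB7 and PSMB4 pass it by definition. POMP, PSMC1 and PSMB4 scored 224.90, 224.52 and 223.84, just above it, and the lowest of the other 5, ZFAND5, scored 229.76. The share of proteasome genes among these peaks therefore depends on where the height is set. At any score, no ARE was present in 4 of the 28 peaks at other proteasome genes (14.3%) and in 2 of the 7 members. Over all 1122 promoter peaks, 166 held none (14.8%). These are counts from 1 library without a test over genes.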
